A study of Rattus norvegicus with 3 samples.

Results

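Genomic sites of Dor (Tp53inp2) were compared between rat oligodendrocytes at an immature stage (iOL, D1 in the names of its peaks) and at a mature stage (mOL, D3 in the names of its peaks). All peaks on chromosomes 1 to 20 of both lists were taken, 57276 from iOL and 160142 from mOL, which makes 217418 of the 291218 peaks in the series. Peaks of the 2 lists were called shared where they overlapped by at least 1 base, and no measured value was used to choose them. Both cell populations started as primary rat precursor cells shaken off mixed glial cultures that had been kept in B104 conditioned medium, and were expanded in Sato medium with bFGF at 20 ng/ml and PDGF-AA at 10 ng/ml. Both were then differentiated in Sato medium with CNTF at 10 ng/ml and the thyroid hormone T3 at 15 nM, although the treatment label of each sample names T3 alone. Dor was profiled with a rabbit antibody by CUT&Tag, in which a transposase tethered by the antibody cuts and tags the DNA around the bound protein. Each stage had 1 library, no control library was used here, and the sources used here do not give the age or number of animals. A peak list holds no expression values, so the labelled stages could not be checked against marker genes.

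Dor is a small protein that moves between nucleus and cytoplasm. In the cytoplasm it takes part in forming autophagosomes, and in the nucleus it acts as a coactivator of nuclear receptors, among them the receptor for thyroid hormone. Thyroid hormone drives oligodendrocyte precursors out of the cell cycle and into differentiation: immature oligodendrocytes extend branching processes, and mature ones express the myelin proteins and build sheaths. The comparison asks where Dor lies at the earlier and at the later of these stages, with the same hormone present at both.

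The depth of the libraries sets what each list can hold. The genome background, which is the lowest background used in a library and counts fragments per base, was 0.54 in iOL and 1.83 in mOL, so that the mOL library was 3.39 times deeper by this measure. The number of fragments at a peak's summit (the pileup) was recovered from the deposited values, and its ratio to the genome background is called strength here. The weakest iOL peak had a pileup of 6, or a strength of 11.1, and the weakest mOL peak a pileup of 10, or a strength of 5.47. Median pileup was 8 fragments in iOL (strength 14.8) and 16 fragments in mOL (strength 8.75). Strength is therefore counted from few fragments in iOL, and an iOL peak as weak as the mOL peaks under a strength of 11.1 could not enter its list. An estimated 43.6% of the iOL and 19.9% of the mOL fragments came from the mitochondrial genome. This takes 2900 Mb, the summed span of all sequences, as the genome size behind the background. The sources used here do not give that size, and another size would shift the estimate. It also rests on only 3 iOL and 2 mOL mitochondrial peaks. Without the mitochondrial fragments so estimated, the mOL library was 4.81 times deeper than the iOL library. All values below without mitochondrial fragments depend on this estimate.

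Most Dor peaks of either stage had no counterpart at the other. Of the 57276 iOL peaks, 9067 overlapped an mOL peak (15.8%, 95% interval 15.5 to 16.1%). Of the 160142 mOL peaks, 9042 overlapped an iOL peak (5.65%, 95% interval 5.53 to 5.76%). These exact Clopper-Pearson intervals cover counting error only. The peaks of a single stage, 48209 in iOL and 151100 in mOL, thus outnumbered the shared ones in both lists. The mOL peaks covered 2.71% of the sequence of chromosomes 1 to 20 and the iOL peaks 0.863%. The share of overlaps that 2 such lists would have by position alone also depends on the widths of the peaks in both, and was not computed. With 1 library per stage there is no spread between replicates, so no test between stages was made, and a difference between the lists is one between 2 libraries.

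The overlap was almost entirely one to one. Only 51 mOL peaks overlapped 2 iOL peaks, 26 iOL peaks overlapped 2 mOL peaks, and 0 peaks of either list overlapped more than 2. On chromosome 1, for example, an mOL peak of 1406 bases at 79605817 to 79607222 (177 fragments, strength 96.8) overlapped an iOL peak of 544 bases with 18 fragments and another of 444 bases with 17 fragments. Also on chromosome 1, an mOL peak of 2169 bases at 192599894 to 192602062, of strength 44.3, overlapped iOL peaks of 447 and 1329 bases, whose strengths were 48.1 and 38.9. The reverse case was an iOL peak of 614 bases at 98702839 to 98703452, of strength 59.2, that touched mOL peaks of 363 and 388 bases with strengths of 16.4 and 18.04. A weaker one of 651 bases, at 128168803 to 128169453 and of strength 22.2, met mOL peaks with strengths of 7.65 and 11.5. In 8940 overlaps, each peak was the single partner of the other.

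The overlaps were mostly longer than a few bases, but many did not span 50% of both peaks. Requiring that span lowered the shared part of the iOL list from 15.8% to 7.34%. The median overlap was 325 bases (quartiles 199 and 421), and 29.9% of the overlapping iOL peaks lay wholly inside their mOL peak, against 5.42% the other way round. Just inside the limit of 1 base, 197 overlaps measured 1 to 10 bases, with a median strength of 14.8 in iOL and 9.84 in mOL. Just outside it, 125 iOL and 127 mOL peaks lay 0 to 9 bases from a peak of the other list, with median strengths of 14.8 and 9.29. Few peaks therefore sat near the limit, and those on either side of it were alike in strength.

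Strong Dor peaks were shared far more often than weak ones. Of the 12611 iOL peaks with a strength under 12, 8.39% overlapped an mOL peak, and of the 10994 with a strength of 20 to 30, 22.4% did. The share was 59.6% of 3018 peaks at 30 to 50, 94.7% of 675 at 50 to 100, and 27 of the 27 iOL peaks of at least 100. In mOL the shares were lower in every class that both lists hold, with backgrounds that include mitochondrial fragments. Without them the backgrounds are 0.305 in iOL and 1.47 in mOL, which raises iOL strengths more. The classes were not compared on that scale, so the order between the lists may not hold there. In the mOL list, 2.42% of 67146 peaks under a strength of 8 overlapped an iOL peak, 16.4% of 7692 at 20 to 30, 37.6% of 4181 at 30 to 50, 65.7% of 1724 at 50 to 100 and 90.6% of 223 at 100 or more. Strength here comes from the same lists as the overlap, so these shares describe the lists.

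**Figure D1:**
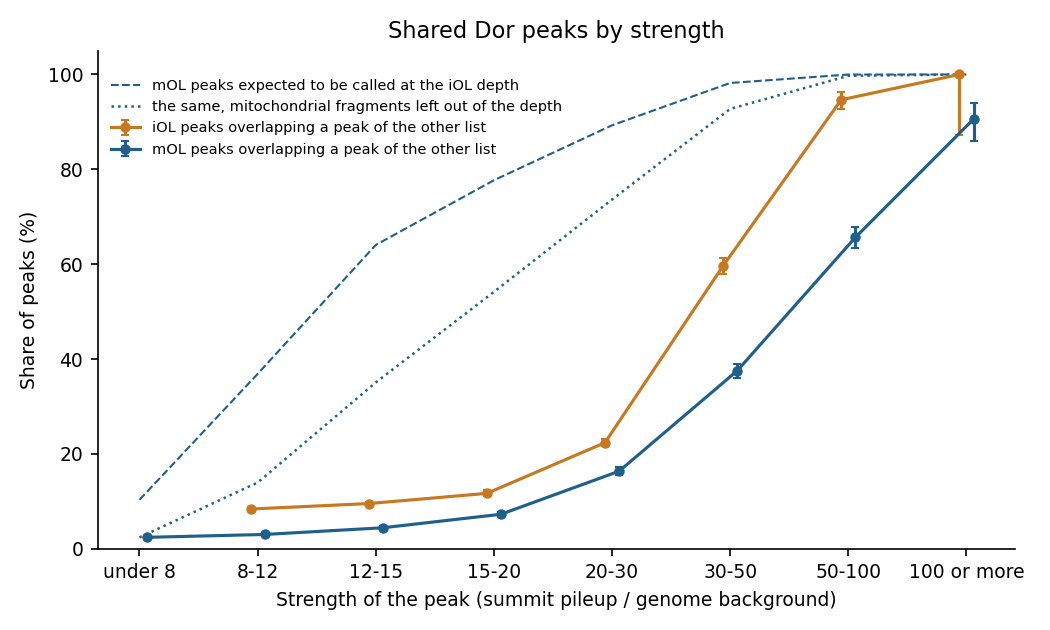
Share of iOL peaks (orange) and mOL peaks (blue) that overlap a peak of the other list, in %, by strength of the peak in times the genome background, with exact 95% intervals; the dashed and dotted lines give the share of mOL peaks expected to be called if thinned to the iOL depth, with and without mitochondrial fragments. Observed sharing climbs from 16.4% of mOL peaks at a strength of 20 to 30 to 90.6% at 100 or more and lies below both lines from a strength of 8 on.

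The shares were set beside a calculation that takes each observed pileup as the true signal, equal over background at both stages. Thinning each mOL pileup to the iOL depth, and asking whether it would still be called over its scaled local background, left an expected 60162 mOL peaks, which is 1.05 per iOL peak. Of these expected peaks, 10.0% overlapped an iOL peak. At a strength of 20 to 30, 89.3% of mOL peaks would be called in iOL by this calculation and 16.4% were. At 30 to 50 the figures were 98.2% and 37.6%, and at 50 to 100 they were 99.98% and 65.7%. With mitochondrial fragments left out of the depth, the expected shares of these 3 classes were 73.6%, 92.7% and 99.7%, still above those observed. For iOL peaks the same calculation gave 99.87% in the deeper mOL list, and 15.8% were found. It takes the 6 to 8 fragments of a weak iOL peak at face value, although the peak is listed because it passed the threshold. Whether depth accounts for the difference was not tested.

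A stricter reading used the lower 95% Poisson limit of each pileup. By that measure, the mOL library had the depth to call 11478 iOL peaks with a probability of at least 0.99, those of at least 12 fragments, and 7085 of them had no mOL peak (61.7%, 95% interval 60.8 to 62.6%). The iOL library could call 5306 mOL peaks, those of at least 59 fragments or a strength of 32.3, and 2625 of them had no iOL peak (49.5%, 48.1 to 50.8%). Over the scaled local background, a rule added after seeing the data, the iOL share was close to this, at 61.5% of 10042 peaks. The mOL share was lower, at 36.6% of 2317 peaks. Without mitochondrial fragments the shares were 75.6% of 25192 iOL and 37.8% of 2774 mOL peaks. By this rule the other 45798 iOL peaks (79.96%) and 154836 mOL peaks (96.7%) were too weak for the comparison, so their absence from the other list shows no difference.

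The strongest mOL peaks without an iOL peak stood above the limit of 59 fragments set over the genome background. The mOL list held 613 peaks of at least 50 times the background without an iOL peak, out of 1947, on all 20 chromosomes. Each had at least 92 fragments. Over the scaled local background fewer mOL peaks were callable, and how many of the 613 pass that rule was not counted. The 613 had a median pileup of 109 fragments and a median width of 836 bases, against 979 bases for the shared peaks of this strength. Most were far from any iOL peak: 34 had one within 500 bases, 419 had none within 5000 bases, and the median distance was 8951 bases. Of the 223 mOL peaks of at least 100, 21 had no iOL peak, with 183 or more fragments each.

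The single strongest of these lay on chromosome 14 at 86028400 to 86028755, with 361 fragments, a strength of 197 and the authors' fold of 25.1 over the local background. It was narrow, at 356 bases, and lay 6065 bases from the nearest iOL peak. A further narrow peak on chromosome 14, of 451 bases at 46826657 to 46827107, had 307 fragments and a strength of 168, and lay 3667 bases from an iOL peak. The next were wide. On chromosome 1, at 81407678 to 81408789, 268 fragments gave a strength of 147, with no iOL peak for 19436 bases. Peaks of 231 fragments, with a strength of 126, were found on chromosome 6 (43822491 to 43823470), with 7439 bases to the nearest iOL peak, and on chromosome 8 (131759099 to 131760135), with 10622 bases to it. In none of these 5 did an iOL peak miss the overlap by a few bases. Genes were not assigned to any peak, since an annotation of the build of these coordinates, rn5, was not used here.

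At this cutoff the iOL list had few peaks of its own, but the count depends on the background. Without mitochondrial fragments the iOL background is 0.305, and iOL peaks of strength 30 to 50 would also pass 50. Of those 3018 peaks, 1218 had no mOL peak (40.4%). Of the 702 iOL peaks of at least 50 times the background used here, 36 had no mOL peak (5.13%, 95% interval 3.62 to 7.03%). They lay on 13 chromosomes and had a median of 30 fragments. The longer mOL list by itself shortens the distance to it. Of the 36, 13 had an mOL peak within 500 bases and 3 had none within 5000 bases. The strongest lay on chromosome 18 at 65241503 to 65242217, with 38 fragments and a strength of 70.3, 4794 bases from the nearest mOL peak. On chromosome 7, at 28152060 to 28152476, an iOL peak of 37 fragments (strength 68.5) lay 2359 bases from an mOL peak. On chromosome 3, the iOL peak at 89557257 to 89557880 had 36 fragments (strength 66.6) and an mOL peak only 63 bases away, a near miss of the overlap rule. Peaks of 35 fragments, with a strength of 64.8, were found on chromosome 3 (114320266 to 114320620), 2765 bases from an mOL peak, and on chromosome 10 (85557140 to 85557694), 1598 bases from one.

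Unshared peaks as a whole lay nearer to the longer list. The median distance from an unshared iOL peak to the nearest mOL peak was 4102 bases (quartiles 1613 and 9198), and 9.11% had one within 500 bases. For unshared mOL peaks the median distance to an iOL peak was 12672 bases (quartiles 5151 and 26632), and 3.10% had one within 500 bases. The mOL list is 2.80 times longer, which by itself shortens the distance to it. Within their own list, the median distance to the next peak was 12127 bases for shared and 13942 for unshared iOL peaks, and 5430 and 5004 bases for mOL peaks. Of the iOL peaks, 18.9% of both kinds had another iOL peak within 5000 bases, and 44.9% of shared and 49.96% of unshared mOL peaks had another mOL peak within that distance.

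Shared and unshared peaks differed in form within each stage. The median shared mOL peak was 579 bases wide with a strength of 18.04, the median unshared one 398 bases with a strength of 8.75. In iOL the medians were 416 bases and 20.4 for shared peaks and 384 bases and 14.8 for unshared ones. Shared peaks were stronger, but within mOL peaks of strength 20 to 30 the shared ones still measured 714 bases and the unshared ones 529. At 30 to 50 the mOL widths were 855 and 704 bases, and the iOL widths 498 and 437. In the weakest classes the widths were close, at 390 and 383 bases for mOL peaks under 8 and 381 and 381 for iOL peaks under 12. The rule of 1 base of overlap itself favours wide peaks, so part of the difference in width is set by it. The local background was also higher around shared peaks: 24.7% of shared mOL peaks stood on the genome background alone, against 57.1% of unshared ones, and the figures for iOL were 34.2% and 64.4%. Within classes of strength the gap was smaller. It was 49.5% against 56.3% for mOL peaks of strength 8 to 12, and 1.11% against 2.92% at 20 to 30. For iOL peaks it was 62.4% against 69.6% at 12 to 15, and 20.7% against 40.1% at 20 to 30.

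For the comparison of position, width and strength, each iOL peak was paired with the overlapping mOL peak where each was the other's nearest by summit, which gave 9017 pairs. Summits, the bases of highest pileup, were often not at the same place. The median distance between the summits of a pair was 182 bases (quartiles 82 and 323). Only 19 pairs had the same summit base, 15.7% had summits within 50 bases, and 8.66% had summits more than 500 bases apart. Among all overlapping peaks, 52.2% had each summit inside the other peak and 19.2% had neither summit inside the other.

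Summits were closer in the pairs with an iOL strength of 30 or more. The median distance was 194 bases in pairs with an iOL strength under 12, 201 at 12 to 15, 199 at 15 to 20 and 193.5 at 20 to 30. It was 160 bases at 30 to 50, 102 bases at 50 to 100 and 75 bases in the 27 pairs of at least 100. Classed by mOL strength, the last 2 medians were 128 and 87 bases. Summit position in weak pairs rests on few fragments, with a median of 6 in iOL for the weakest class, against 33 at 50 to 100.

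Distant summits were as common among pairs of at least 20 times the background in both lists as among all pairs. More than 500 bases lay between the summits of 294 such pairs (8.67%), against 8.66% of all pairs. In the widest separation among the 3390 pairs of at least 20 times the background in both lists, an iOL peak of 364 bases on chromosome 19 at 48905840 to 48906203 (14 fragments) overlapped the edge of an mOL peak of 2292 bases at 48905908 to 48908199 (60 fragments). Their summits lay 1896 bases apart. On chromosome 5, the iOL peak at 160330338 to 160330739 (18 fragments) and the mOL peak at 160330553 to 160332363 (67 fragments) had summits 1524 bases apart. The third pair, on chromosome 1, joined an iOL peak at 233180009 to 233180627 (18 fragments) to an mOL peak at 233178422 to 233180197 (111 fragments), with 1443 bases between summits. In all 3, the iOL peak was the narrower one and met the flank of a wide mOL peak, so that the shared bases did not hold the mOL summit.

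Dor peaks were wider in mOL. Median width of the paired peaks was 415 bases in iOL and 579 in mOL. The mOL to iOL width ratio had a median of 1.25 (quartiles 0.96 and 1.87). The mOL peak was the wider one in 71.1% of the pairs and the narrower one in 28.6%. It was at least 2 times as wide in 1985 pairs (22.0%), and at most 0.5 times as wide in 139 (1.54%). The ratio was higher in strong pairs: the median ratio was 1.12 at an iOL strength under 12, 1.31 at 20 to 30, 1.5 at 30 to 50 and 1.61 at 50 to 100. In the 27 pairs with an iOL strength of at least 100 it was 1.31.

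Equal strength did not remove the difference in width. Among 1044 pairs whose strengths agreed within 10%, the median width ratio was 1.35. In the 101 of these with an iOL strength of at least 50, the median of the ratios was 1.57, from median widths of 625 bases (iOL) and 1011 bases (mOL). These strong pairs still had a median pileup of 34 fragments in iOL and 114 in mOL. A deeper library can pass the calling threshold farther down the flanks of the same peak, so width and depth cannot be told apart in this design.

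**Figure D2:**
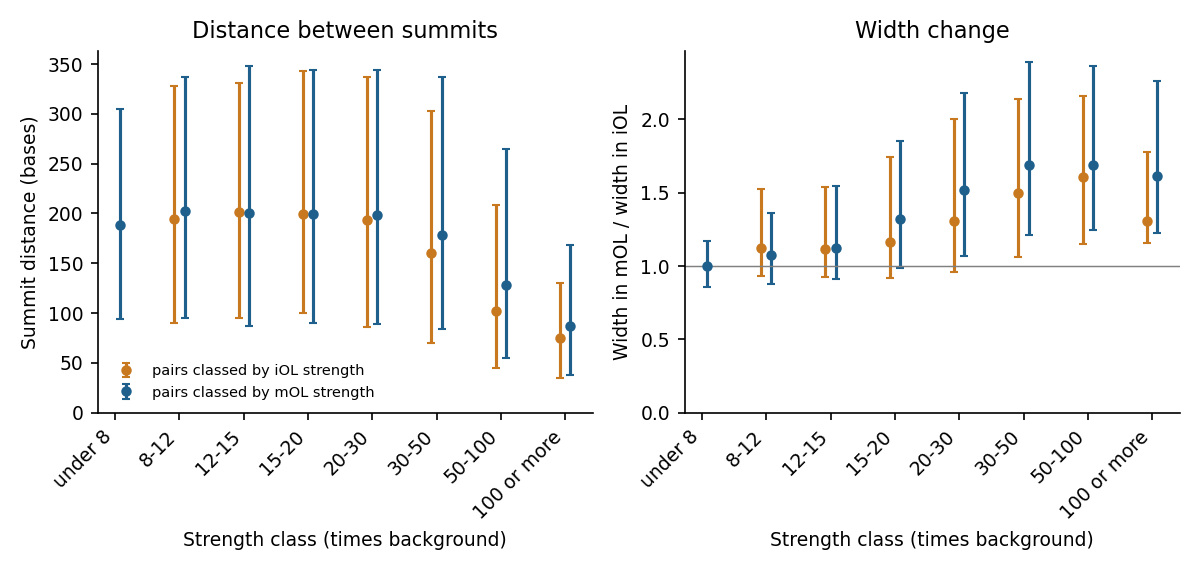
Distance between the summits of paired peaks in bases (left) and width in mOL divided by width in iOL (right), by strength class in times the genome background, with pairs classed by iOL strength (orange) or by mOL strength (blue); points are medians and bars quartiles over pairs. Median distance is 194 bases at an iOL strength of 8 to 12 and 102 at 50 to 100, while the median width ratio is 1.12 and 1.61 in the same classes.

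The extremes of width ran both ways. On chromosome 3, an iOL peak of 299 bases at 120852714 to 120853012 overlapped an mOL peak of 2061 bases at 120852895 to 120854955, a ratio of 6.89. Pileups there were 14 fragments in iOL and 112 in mOL. The chromosome 19 pair with the distant summits followed at 6.30, and a pair on chromosome 9 (iOL 92168423 to 92168721, mOL 92167036 to 92168905) had widths of 299 and 1870 bases, a ratio of 6.25. In these cases mOL carried one long stretch where iOL carried a short peak.

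The 3 pairs at the other end were narrower in mOL. On chromosome 5 the iOL peak at 143710116 to 143711142 measured 1027 bases and its mOL partner at 143711033 to 143711351 measured 319, a ratio of 0.311. On chromosome 1 the peaks at 95562716 to 95563640 and 95563026 to 95563326 gave a ratio of 0.325, and on chromosome 8 those at 55276522 to 55277481 and 55276588 to 55276905 gave 0.331. Their iOL pileups were 15, 13 and 22 fragments and their mOL pileups 40, 58 and 43. These 3 belong to the minority of pairs in which the deeper library held the narrower peak.

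Which stage had the stronger peaks depended on which pairs were counted. Over all 9017 pairs the median mOL to iOL strength ratio was 0.87 (quartiles 0.55 and 1.33), and 41.6% of pairs had the higher strength in mOL. The calling limits fix part of this. All 1622 pairs with an mOL strength under 8 had the higher strength in iOL, since no iOL peak lies under 11.1. Among the 3390 pairs of at least 20 in both lists the median ratio was 1.2 and 66.9% were higher in mOL. Among the 427 pairs of at least 50 in both it was 1.22 and 74.0%. The list used for the choice set the direction: pairs with an iOL strength of at least 50 had a median ratio of 0.97, and those with an mOL strength of at least 50 one of 1.76. By the geometric mean of both strengths, which draws on both lists, the 818 pairs of at least 50 had a median ratio of 1.42. At a geometric mean of 20 to 30 the median was 1.06 and at 30 to 50 it was 1.24.

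Mitochondrial fragments moved with these ratios. With backgrounds that leave them out, every ratio was multiplied by the same factor, and the medians became 0.61 over all pairs, 0.84 for pairs of at least 20 in both lists, 0.86 for those of at least 50 in both and 1.003 for those with a geometric mean of at least 50. All these pairs were chosen on strengths that include mitochondrial fragments, and only the ratios were rescaled. With that choice, the direction turned for pairs strong in both lists, and the median by the geometric mean was near 1. Pairs were not chosen anew on the rescaled strengths. For pairs with an mOL strength of at least 50 the median stayed above 1, at 1.24, and for those with an iOL strength of at least 50 it stayed below 1, at 0.68. The order of the pairs by ratio does not depend on the background used.

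**Figure D3:**
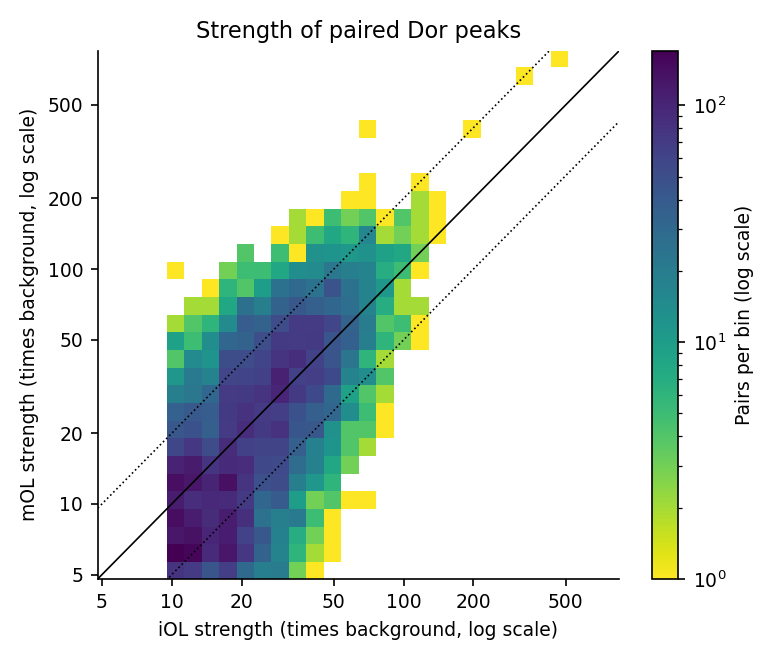
Strength of each paired peak in iOL (horizontal) and mOL (vertical), in times the genome background on log scales, with colour for the number of pairs per bin; the solid line marks equal strength and the dotted lines a 2-fold difference. The cloud begins at the weakest callable strengths of 11.1 in iOL and 5.47 in mOL, and the 5 strongest pairs lie above the solid line.

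A pair was counted as different where the ratio reached 2-fold and the exact binomial 95% interval of the 2 pileups did not hold a ratio of 1. By this rule 784 of the 9017 pairs (8.69%) were stronger in mOL and 1053 (11.7%) were stronger in iOL. Among the 3390 pairs of at least 20 in both lists the balance was the opposite, with 478 stronger in mOL and 81 in iOL. All 784 pairs stronger in mOL had an mOL strength of at least 20, since weaker pairs can hardly meet the rule in that direction. Of the 1053 pairs stronger in iOL, 523 had an mOL strength under 8, below the weakest iOL peak at 11.1. Without mitochondrial fragments the numbers over all pairs were 238 and 2426, and among the same 3390 pairs, not chosen anew, 132 and 386. The pairs stronger in mOL were also wider there, with a median width ratio of 1.84 and medians of 459 bases in iOL and 944 in mOL. Those stronger in iOL had a median width ratio of 1.03. Paired strengths followed each other loosely, with a Spearman coefficient of 0.64 over all pairs and 0.40 over pairs of at least 20 in both, which describes pairs of 2 libraries and carries no test.

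The extremes of the strength ratio were picked from 3390 pairs, which their counting intervals do not allow for. The highest ratio among pairs of at least 20 in both lists was 5.96 (counting interval 3.27 to 12.1), on chromosome 6 at 108049116 to 108049841 in iOL, where 11 fragments in iOL met 222 in mOL. On chromosome 5 at 147988947 to 147989352, 11 and 208 fragments gave 5.58 (3.06 to 11.4), and on chromosome 7 at 142015691 to 142016043, 12 and 224 fragments gave 5.51 (3.09 to 10.8). Without mitochondrial fragments the 3 ratios were 4.19, 3.93 and 3.88. The summits of the last 2 pairs were 68 and 25 bases apart, so nearly the same position was stronger in mOL than in iOL. The summits of the first were 315 bases apart.

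At the lower end, the strength was higher in iOL. On chromosome 6 at 122928479 to 122928900, 42 fragments in iOL and 38 in mOL gave strengths of 77.7 and 20.8, a ratio of 0.267 (counting interval 0.168 to 0.425), with summits 25 bases apart. On chromosome 14 at 100165912 to 100166810, 43 and 45 fragments gave 0.309 (0.199 to 0.481). On chromosome 17 at 55394800 to 55395328, 36 and 38 fragments gave 0.312 (0.192 to 0.506). At these 3 sites the shallower library held about as many fragments as the deeper one.

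The pairs of highest strength in both lists were led by a site on chromosome 4. On chromosome 4 the iOL peak at 142116143 to 142116726 had 269 fragments, a strength of 498, and the mOL peak at 142116046 to 142116781 had 1394 fragments, a strength of 762. The ratio was 1.53 (counting interval 1.34 to 1.75). The pair on chromosome 19 at 67047823 to 67048641 had strengths of 330 and 654, a ratio of 1.99 (1.70 to 2.34), and the one on chromosome 1 at 151578704 to 151579826 had 213 and 365, a ratio of 1.71 (1.40 to 2.11). On chromosome 2 at 217239134 to 217239889 the strengths were 152 and 161, with a ratio of 1.06 (0.83 to 1.37). On chromosome 7 at 123018525 to 123019250 they were 146 and 185, with a ratio of 1.26 (0.99 to 1.64). The counting intervals of the last 2 include equal strength, those of the first 3 do not. Without mitochondrial fragments the ratios were 1.08, 1.40, 1.21, 0.75 and 0.89, and of the 5 only the interval on chromosome 19 then lay above 1, at 1.19 to 1.65, while that on chromosome 2 lay below 1, at 0.584 to 0.967.

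**Figure D4:**
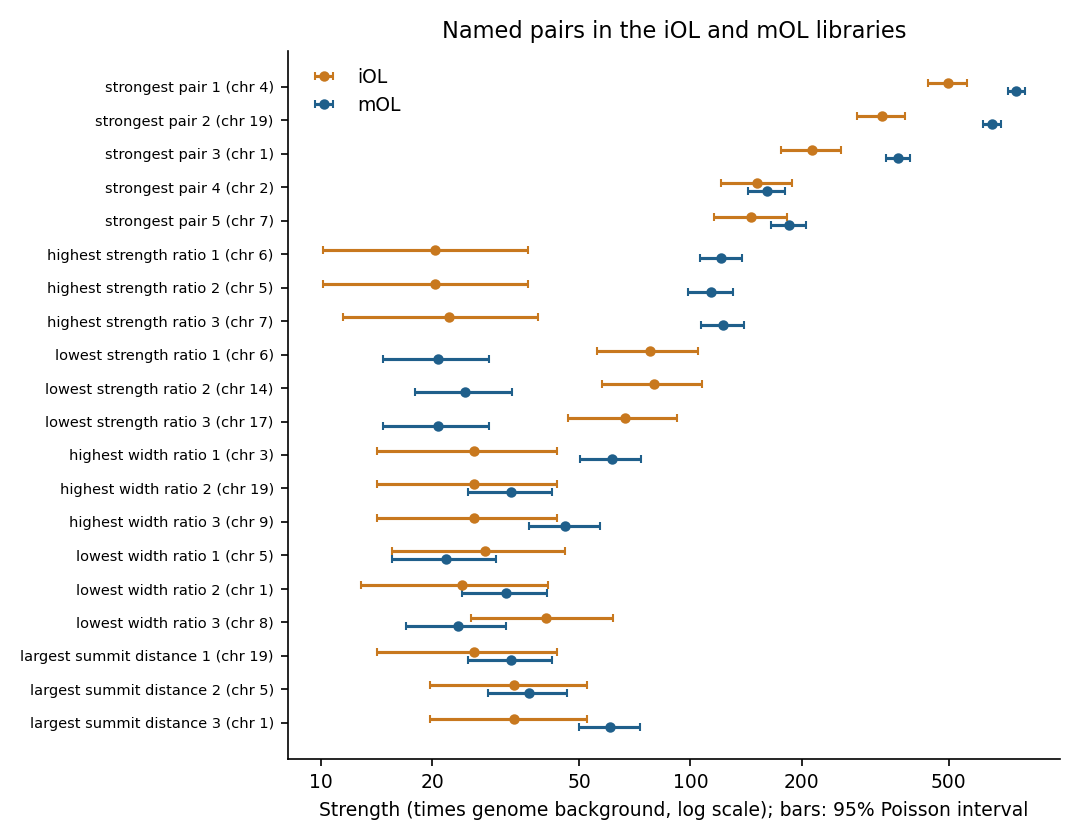
Strength in iOL (orange) and mOL (blue) of the pairs named in the text, in times the genome background on a log scale, with 95% Poisson intervals of the pileups, which cover counting error only. The 5 strongest pairs lie at 146 or more in both libraries, and the 3 of highest and 3 of lowest ratio show intervals that do not overlap.

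Sharing differed between chromosomes. The share of iOL peaks with an mOL peak ran from 13.0% on chromosome 2 (95% interval 12.1 to 13.9%) to 20.5% on chromosome 12 (18.2 to 22.9%), with 19.8% on chromosome 10 (18.4 to 21.2%). The share of mOL peaks with an iOL peak ran from 4.95% on chromosome 2 (4.60 to 5.33%) to 6.62% on chromosome 10 (6.12 to 7.15%). Chromosome 10 also had the most peaks per Mb in both lists, 27.7 in iOL and 82.4 in mOL, and the highest median strength ratio of its pairs, 1.05, where chromosome 2 had the lowest, 0.78.

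Chromosomes dense in mOL peaks had a larger shared part of the iOL list. Over the 20 chromosomes, the density of mOL peaks and the shared iOL percentage had a Spearman coefficient of 0.67, and the shared mOL percentage one of 0.56, which describes chromosomes of the same 2 libraries and carries no test. A dense list makes overlaps more likely, so density and sharing are not independent. Among iOL peaks of at least 20 times the background the coefficient was 0.53, and among mOL peaks of that strength it was -0.63, the single negative one of the 4. On chromosome 12, 24.8% of 552 such mOL peaks had an iOL peak, the lowest share of the 20 chromosomes, and on chromosome 11, 35.2% of 335 did, the highest.

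**Figure D5:**
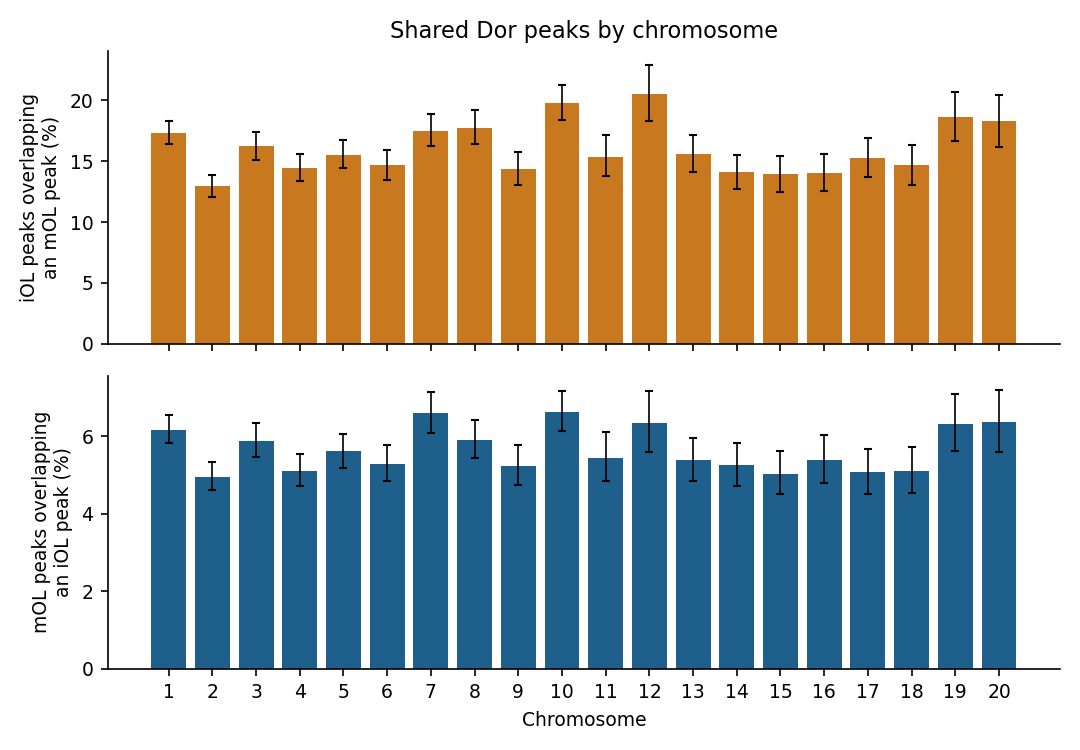
Share of iOL peaks that overlap an mOL peak (top) and of mOL peaks that overlap an iOL peak (bottom), in %, for chromosomes 1 to 20, with exact 95% intervals that cover counting error only. The iOL share is lowest on chromosome 2 at 13.0% and highest on chromosome 12 at 20.5%.

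In windows of 1 Mb, pairs were spread thinly over the genome. Of 2613 windows with a peak, 390 (14.9%) held no pair, the median held 3, and the largest number was 28, on chromosome 7 at 11000001 to 12000000, with 57 iOL and 122 mOL peaks. The next were a window on chromosome 5 at 176000001 to 177000000, with 20 pairs, and one on chromosome 1 at 101000001 to 102000000, with 19. Over all windows, iOL peaks made up 26.3% of the peaks of both lists. Among the 1973 windows with at least 60 peaks, the highest iOL share was 48.3% (95% interval 35.2 to 61.6%), on chromosome 2 at 187000001 to 188000000, where 29 iOL and 31 mOL peaks shared 1 pair. The lowest was 12.1% (6.19 to 20.6%), on chromosome 1 at 287000001 to 288000000, with 11 iOL and 80 mOL peaks. Both are extremes of many windows, which the intervals do not allow for.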

How the data were processed

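Per the labels' protocols, the CUT&Tag reads were paired-end and 150 bases long. The submitters' processing notes name build rn5 and, without roles, MACS2 2.2.7.1, Bowtie2 2.4.4 and deepTools 3.5.1. Per the submitters' processing notes and the file layout, 1 narrowPeak list per library was deposited, with the word pool in each peak's name. The sources used here do not say what was pooled, whether a control entered, or how duplicate fragments were handled. The authors' deposited fold is a linear ratio of the summit pileup to the local background, the deposited p and q values are −log10 values (lowest p value 5.00), and the deposited score is −log10 p times 10 without decimals. Coordinates are on rn5, counted from 1.

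Pileup and local background were solved from the deposited fold and p as MACS2 defines them (pseudocount 1, Poisson). A whole pileup matched −log10 p within 0.001 for 100% of iOL peaks and all but 1 mOL peak. The genome background was the lowest recovered. Mitochondrial shares took the mean local background on the mitochondrial genome times its length, with sequence lengths taken from the last peak. Scripts (Python 3.11.15, SciPy 1.17.1) were tested on simulated data. No test between stages was made. Peaks named are the extremes of each measure by a fixed rule (5 strongest pairs and unshared peaks per list, and 3 per extreme of ratio, width and summit distance at a strength of at least 20). Members, thresholds and alternatives were chosen with earlier results of these data known. Chromosome X, unplaced sequences and gene lists were left out, the last for want of an rn5 annotation here.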

Additional observations from a re-analysis of the deposited data

Results flagged for a closer look

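The mitochondrial genome carried signal outside the comparison. Its highest summit pileup was 77861 fragments in iOL and 125413 in mOL, from 8 and 5 peaks, against at most 269 and 1394 fragments at any peak of chromosomes 1 to 20. No control library was used here, so the level without the antibody is not known. The authors' fold over the local background was low there, at 1.18 to 2.96 in iOL and 1.38 to 2.69 in mOL. What part of it is specific to the antibody was not tested.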

How the results depend on the processing

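Shared parts were smaller under stricter overlap: 7.34% of iOL and 2.62% of mOL peaks with 50% of both peaks, and 8.50% and 3.04% with 200 bases at each summit. They were 19.7% and 4.98% at a −log10 q of at least 5, 23.3% and 24.6% with both lists at a strength of at least 20, 11.2% and 11.2% with the mOL list shortened to equal length, and 10.6% and 10.0% with mOL peaks weighted by their probability of a call at the iOL depth. Among callable peaks, 80.6% of iOL and 74.3% of mOL peaks had no counterpart with 50% overlap, 78.2% and 69.4% at the summits, 75.6% and 37.8% without mitochondrial fragments, 84.2% and 75.9% at a probability of at least 0.9 from the observed pileup, and 55.2% and 45.9% with peaks within 500 bases counted. Over the scaled local background the mOL value was 36.6%. The median summit distance was 176 bases at the q limit and 156 at a strength of at least 20. The width ratio was 1.38 at the q limit, 1.62 at that strength and 1.46 with weights. The strength ratio was 0.92 at the q limit, turned to 1.2 at a strength of at least 20 and 1.11 with weights, and was 0.61 without mitochondrial fragments. Pairs stronger in mOL numbered 479 and those stronger in iOL 81 at a strength of at least 20, and 238 and 2426 without mitochondrial fragments. With ratios divided by their median, 1195 were stronger in mOL and 726 in iOL, which turned the balance. Counting all overlapping pairs, single partners or all nuclear sequences moved the median distance to 182 to 184 bases, the width ratio to 1.25 to 1.26 and the strength ratio to 0.86 to 0.87. The local background rule, the scaling by the median and the pair counts were added after seeing the data. Depth limits the iOL list most, since its smallest callable pileup of 6 stands 11.1 times above its background. No paired analysis was possible because only 1 library stands for each stage.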

Other observations

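Chromosome X, which was not part of the comparison, shared fewer peaks. There 225 of 2388 iOL peaks overlapped an mOL peak (9.42%, 95% interval 8.28 to 10.7%), below the 13.0% of chromosome 2, the lowest of chromosomes 1 to 20. Of 6629 mOL peaks, 226 overlapped an iOL peak (3.41%, 2.99 to 3.87%). Strong peaks were also fewer: 19.2% of iOL and 3.61% of mOL peaks on chromosome X reached 20 times the background, against at least 23.0% and 6.14% on chromosomes 1 to 20. Among these strong peaks 19.7% of 458 in iOL were shared, below the 28.0% of chromosome 15, the lowest of chromosomes 1 to 20. In mOL 27.2% of 239 were shared, within the range of 24.8% to 35.2% on chromosomes 1 to 20.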
